A study of Mus musculus with 6 samples.

Results

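The sterol and fatty acid synthesis genes comprised 32 of the 13659 gene symbols in the deposited expression table. They were picked by name from a list of 34 symbols covering the enzymes and regulators of both pathways, a list set with earlier results of these data known. Mvd was not analysed here, and Msmo1 was listed under its older symbol Sc4mol and counted once. The sterol arm held 22 genes and the fatty acid arm 10. Expression was measured in 6 bulk RNA-seq libraries of MC3T3-E1 subclone 4, a single osteoblast-like cell line from mouse calvaria kept in serum-containing medium. There were 3 libraries of cells given PTH(1-34), an amino-terminal piece of the parathyroid hormone, and 3 of cells given vehicle, and no genetic change is labelled in either group. The time of treatment is uncertain, because the sample characteristics give 30 min and the treatment protocol gives 2 h. The labels name no separate cultures within a group, so the p-values reflect the spread among libraries alone, which may be technical.

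Values are FPKM, that is read fragments per transcript length and library size, summed over the transcripts of a gene. Because FPKM are not counts, and steps of whole reads were not tested in their low values, the sequencing depth is unknown. FPKM totals were 618221 to 814132 with PTH and 677256 to 853916 with vehicle, of which the short RNA gene Mir5105 took 19.0% to 39.6%. The summed FPKM of the 32 synthesis genes was 3056, 2555 and 2971 in PTH libraries 1 to 3, against 2630, 2241 and 2516 in vehicle libraries 1 to 3. Osteoblast markers (6 of 7 in the table) summed to 831 to 944 FPKM with PTH and to 811 to 895 FPKM with vehicle, most of it Spp1 at 505 to 748 FPKM with PTH and 459 to 699 FPKM with vehicle. Single markers moved in both directions: the transcription factor Sp7 stood at 5.01 to 8.09 FPKM with PTH and at 31.0 to 54.0 FPKM with vehicle, and the matrix gene Bglap at 20.5 to 37.1 FPKM with PTH and at 2.54 to 6.31 FPKM with vehicle. Runx2, a defining transcription factor of the lineage, stood at 66.3 to 72.8 FPKM with PTH and at 53.0 to 64.9 FPKM with vehicle, and the part of these markers in the results below was not tested. Adipocyte markers, whose cells make much lipid, summed to 5.21 to 5.71 FPKM with PTH and to 5.53 to 7.27 FPKM with vehicle over the 2 of 8 in the table, with Fabp4 below 1 FPKM in every library. Macrophage markers (3 of 5, nearly all Lyz2) summed to 6.94 to 11.7 FPKM with PTH and to 7.29 to 13.3 FPKM with vehicle, and the muscle marker Des stood at 0.43 to 1.05 FPKM with PTH and at 0.62 to 1.51 FPKM with vehicle. In bulk RNA, fewer cells with a transcript and less of it per cell cannot be told apart.

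Cells build cholesterol from acetyl-CoA through mevalonate, isoprenoids, squalene and lanosterol, and they build fatty acids from the same acetyl-CoA by carboxylation, chain synthesis, elongation and desaturation. Most genes of both routes carry binding sites for the SREBP transcription factors, encoded by Srebf2 and Srebf1, which the escort protein Scap carries out of the endoplasmic reticulum unless Insig proteins hold them there. The PTH receptor couples to G proteins and raises cyclic AMP, and in osteoblasts the mevalonate route also supplies the isoprenoids attached to small GTPases.

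With PTH, 9 of the 32 synthesis genes rose and 3 fell (limma, Benjamini-Hochberg adjusted p under 0.05 over 11628 tested genes), against 10.8% of all tested genes higher and 41.0% lower. The rising genes were Hmgcs1, Mvk, Pmvk and Idi1 of the mevalonate steps, Cyp51 and Hsd17b7 of the sterol ring steps, the regulator Insig1, and the fatty acid elongases Elovl5 and Elovl6. Those that fell were Lss and Dhcr7 of the sterol ring steps and the escort gene Scap. All 3 PTH libraries lay above all 3 vehicle libraries for the same 9 genes and below them for the same 3, against 13.1% and 47.5% of all tested genes. The genes that rose made up 28.1% of the synthesis genes and those that fell 9.38%, so the share that rose was above the background and the share that fell below it. A rise of at least 1 on the log2 scale was seen in 3 synthesis genes (9.38%) and in 3.09% of all tested genes.

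The median change over the 32 synthesis genes was 0.04 (log2 of FPKM + 0.5, PTH minus vehicle), beside -0.15 over all tested genes. It was 0.06 in the sterol arm and -0.02 in the fatty acid arm. When each library was centred on its median, which added 0.12 to every change, 12 synthesis genes rose and 3 fell, against 18.3% and 24.0% of all tested genes. Set against the median of all tested genes, the 9 rises ran from 0.44 (Hmgcs1) to 1.44 (Pmvk), and the 3 falls from -0.26 (Scap) to -0.39 (Lss). The library numbers were taken to pair the samples, because libraries with the same number deviated together, and the fit above left this pairing out. A fit with the number as a block called 14 synthesis genes higher and 10 lower, against 13.8% and 50.0% of all tested genes. With the block and the centring together, 17 were higher and 6 lower, against 24.9% and 30.9%. Of the 10 called lower with the block, Fdft1 (adjusted p = 0.0766), Nsdhl (0.0650), Tm7sf2 (0.0508) and Scd2 (0.186) were not called once centring was added. The 9 rises and 3 falls named above kept their calls in both of these blocked fits and with centring alone.

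**Figure D1:**
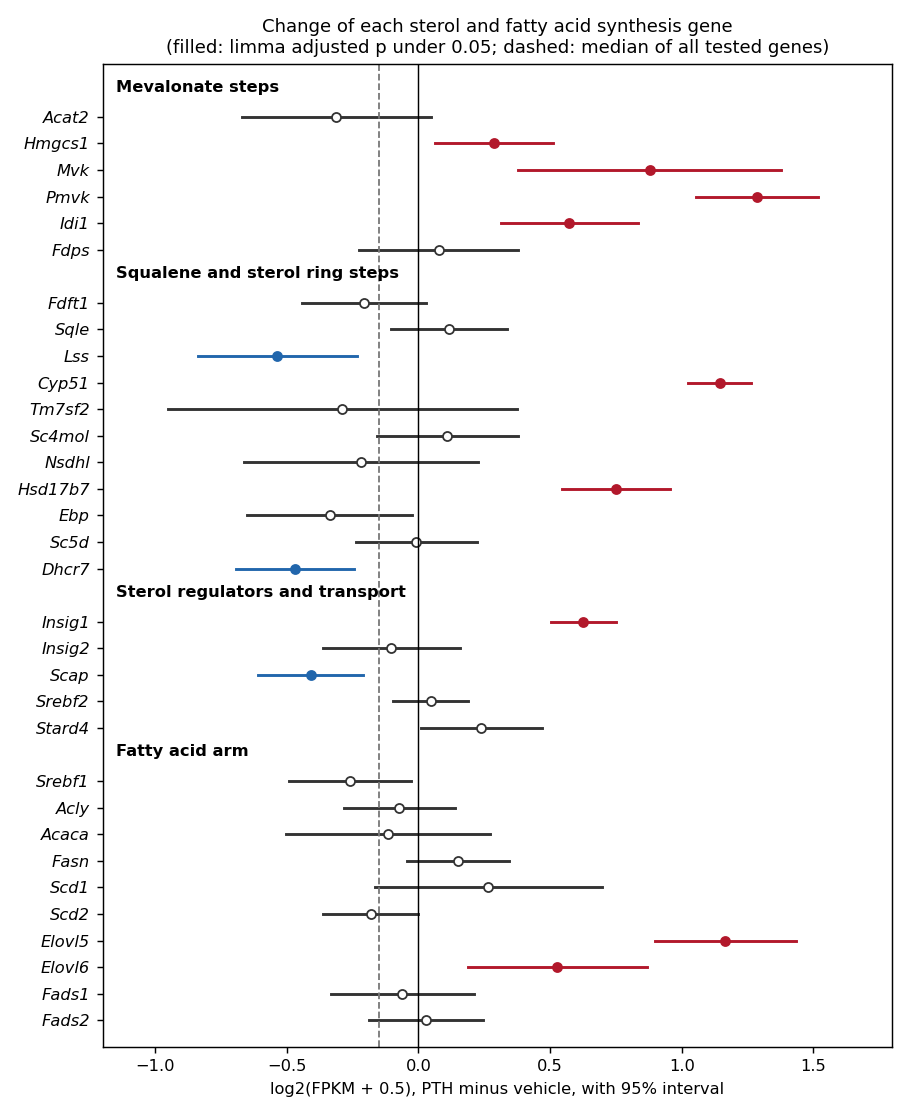
Change of each of the 32 synthesis genes with PTH relative to vehicle, on the log2(FPKM + 0.5) scale (points, estimates; bars, 95% intervals; n = 3 libraries per group), ordered along the pathway. Filled points mark the 9 genes that rose (Pmvk highest at 1.29) and the 3 that fell (Lss lowest at -0.54), and the dashed line marks the median of all tested genes, -0.15.

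**Figure D2:**
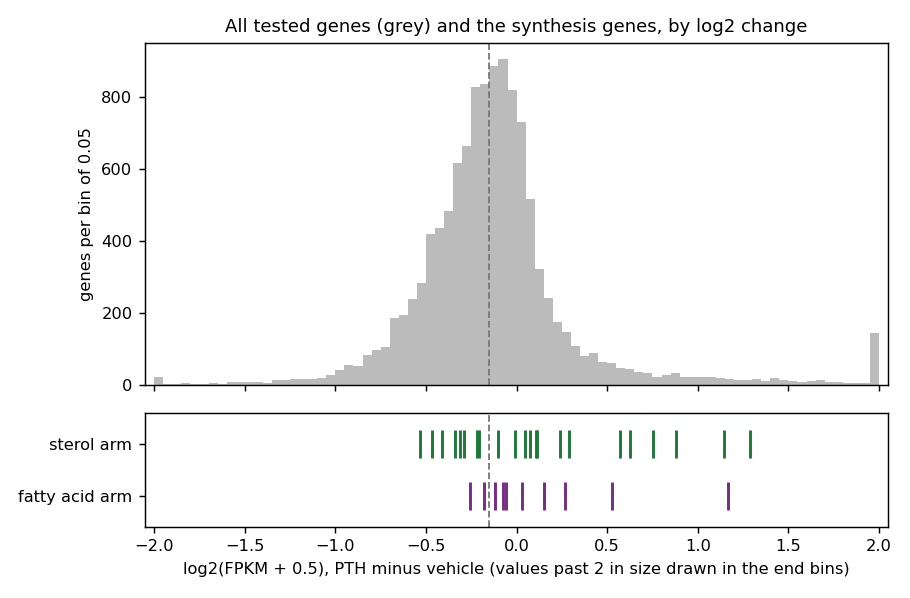
Histogram of the log2 change of all 11628 tested genes (grey, genes per bin of 0.05; values past 2 in size are drawn in the end bins), with the sterol arm and fatty acid arm genes as ticks below on the same axis. The bulk of the genes lies below 0, around the median of -0.15, while the 9 genes that rose lie in the right flank, between 0.29 and 1.29.

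The first steps of the sterol route condense acetyl-CoA and turn mevalonate into isoprenoid units, and 4 of the 6 genes measured there rose (median log2 change 0.43). Pmvk, phosphomevalonate kinase (chr3:89454541-89469013, plus strand; gene coordinates are GENCODE M21 on GRCm38, the assembly also called mm10), stood at 83.4, 70.3 and 89.6 FPKM in PTH libraries 1 to 3, against 34.4, 30.2 and 34.0 FPKM in vehicle libraries 1 to 3. The groups did not overlap, and the mean was 2.47-fold higher with PTH (log2 1.29, SE 0.10, adjusted p = 0.000132). Mvk, the mevalonate kinase one step earlier (chr5:114444269-114460591, plus strand), stood at 109, 63.3 and 79.5 FPKM with PTH, against 51.2, 36.4 and 46.6 FPKM with vehicle. Its groups did not overlap either, but library 2 was the lowest and library 1 the highest of each group, so the spread within a group was wide (1.87-fold, log2 0.88, SE 0.21, adjusted p = 0.0122). Idi1, the isomerase that interconverts the isoprenoid building blocks (chr13:8885501-8892451, plus strand), stood at 160, 132 and 168 FPKM with PTH, against 111, 91.8 and 105 FPKM with vehicle. That was a 1.49-fold rise (log2 0.57, SE 0.11, adjusted p = 0.00488), again with library 2 lowest in both groups.

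Hmgcs1, the synthase that makes the HMG-CoA from which mevalonate is formed (chr13:119690379-119708260, plus strand), showed the smallest of the 9 rises. It stood at 232, 202 and 249 FPKM with PTH, against 202, 170 and 187 FPKM with vehicle, and PTH library 2 lay only just above vehicle library 1. The mean was 1.22-fold higher with PTH (log2 0.29, SE 0.09, adjusted p = 0.0389). This call was lost without PTH library 1 (adjusted p = 0.0944), PTH library 3 (0.114), vehicle library 2 (0.110) or vehicle library 3 (0.0901), and with quantile normalisation (0.181) and TPM (0.182), and it held with the block (adjusted p = 0.00312). The steps on either side of these genes did not pass. Acat2, the cytosolic thiolase that makes acetoacetyl-CoA, stood at 50.4, 38.1 and 42.6 FPKM with PTH, against 65.4, 45.5 and 53.0 FPKM with vehicle, and its groups overlapped (log2 -0.31, SE 0.15, adjusted p = 0.126). It was below vehicle at each library number, and it passed with the block (adjusted p = 0.00103) and, narrowly, without vehicle library 2 (adjusted p = 0.0497). Its near-identical neighbour in sequence, Acat3, stood at 23.3 to 26.1 FPKM with PTH and at 25.8 to 28.3 FPKM with vehicle, and how reads shared by the pair were divided is not given in the sources used here. Fdps, which joins isoprenoid units into farnesyl diphosphate and had the second highest level of the 32 genes with vehicle, averaged 268 ± 35.3 FPKM with PTH and 254 ± 32.4 FPKM with vehicle (SD, n = 3 each). Its change of 0.08 (95% interval -0.23 to 0.38, adjusted p = 0.644) was smaller than the spread within either group. Paired by library number it was above vehicle in all 3 pairs (log2 0.11, 0.08 and 0.05), which did not pass with the block (adjusted p = 0.0721) and was called higher with the block and centring together (0.20, adjusted p = 0.00271).

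**Figure D3:**
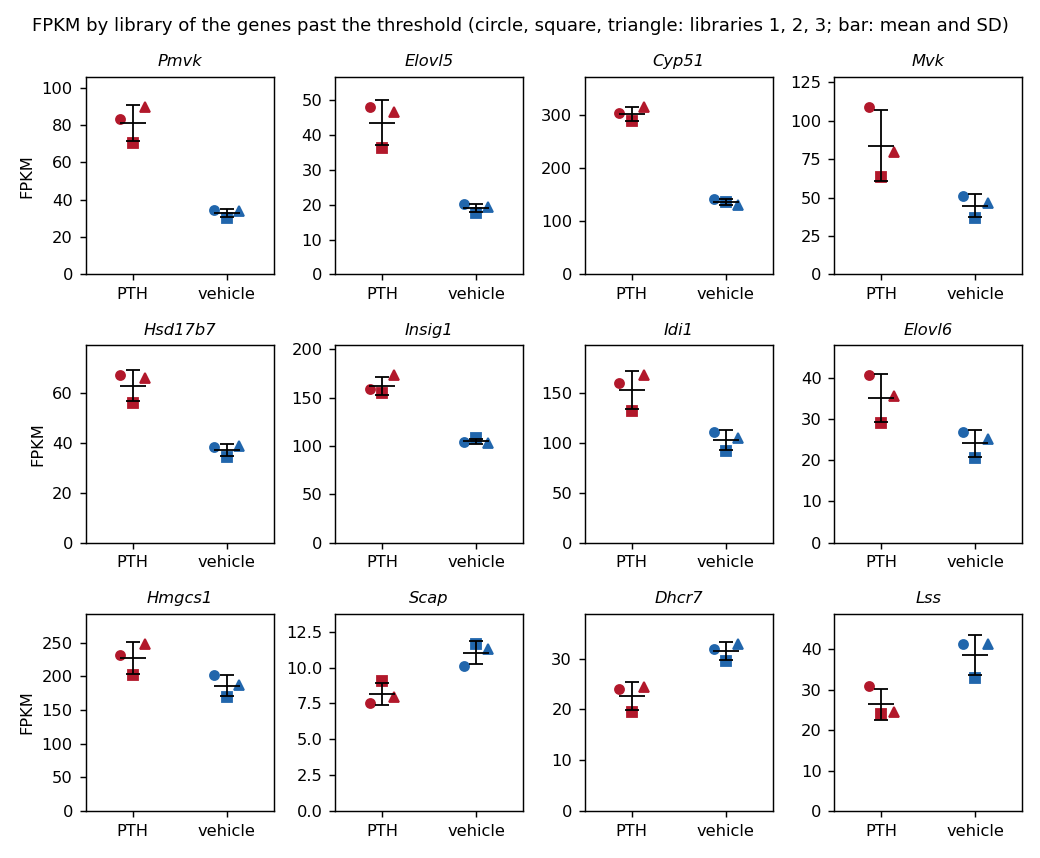
FPKM of the 12 synthesis genes past the threshold, one panel per gene, with PTH libraries on the left and vehicle libraries on the right (circle, square and triangle, libraries 1, 2 and 3; bars, mean and SD; axes start at 0). The groups do not overlap in any panel, and library 2 (square) is the lowest of its group in most panels, the exceptions being Scap and the vehicle libraries of Cyp51 and Insig1.

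The squalene and sterol ring steps moved in both directions: of 11 genes, 2 rose, 2 fell and 7 did not pass (median log2 change -0.21). Cyp51, the lanosterol demethylase that takes the first step after ring closure (chr5:4081145-4104746, minus strand), stood at 304, 288 and 314 FPKM with PTH, against 143, 136 and 131 FPKM with vehicle. Both groups were tight, and the mean was 2.21-fold higher with PTH (log2 1.14, SE 0.05, adjusted p = 1.43e-05). Its end overlaps that of Akap9 on the opposite strand, which averaged 9.33 FPKM with PTH and 9.32 FPKM with vehicle. Hsd17b7, a ketosteroid reductase of the demethylation steps that follow (chr1:169949535-169969241, minus strand), stood at 67.0, 55.8 and 66.0 FPKM with PTH, against 38.4, 34.1 and 38.8 FPKM with vehicle. The groups stood well apart, with a 1.70-fold rise (log2 0.75, SE 0.09, adjusted p = 0.000642).

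Lss and Dhcr7, at the entry and the end of the ring steps, fell. Lss, lanosterol synthase, which closes the sterol ring just before Cyp51 acts (chr10:76531588-76557138, plus strand), stood at 30.9, 24.0 and 24.5 FPKM with PTH, against 41.4, 32.9 and 41.3 FPKM with vehicle. The highest PTH library was just below the lowest vehicle library, and the mean ratio was 0.687 (log2 -0.54, SE 0.13, adjusted p = 0.0119). The main coding transcript of Lss held a mean of only 48.8% of this sum with PTH and 44.9% with vehicle. On that transcript alone the fall passed narrowly (log2 -0.41, adjusted p = 0.0451). In the limma test of single transcripts it did not pass (adjusted p = 0.0673). Dhcr7, the reductase that completes cholesterol (chr7:143823145-143848410, plus strand), stood at 24.1, 19.5 and 24.4 FPKM with PTH, against 31.8, 29.4 and 32.9 FPKM with vehicle. Its groups were further apart (ratio 0.722, log2 -0.47, SE 0.09, adjusted p = 0.00606). As TPM neither fall passed (adjusted p = 0.0909 for Lss and 0.174 for Dhcr7), with changes of -0.45 and -0.38.

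The other 7 ring-step genes had overlapping groups. Fdft1, squalene synthase, averaged 41.7 ± 4.38 FPKM with PTH and 48.1 ± 4.56 FPKM with vehicle (SD, n = 3 each; log2 -0.21, adjusted p = 0.125). It lies across the end of Ctsb on the opposite strand, which averaged 118 FPKM with PTH and 109 FPKM with vehicle. Sqle, the epoxidase of squalene, averaged 129 ± 12.4 FPKM with PTH and 119 ± 10.8 FPKM with vehicle (log2 0.12, adjusted p = 0.336). Sc4mol, the methyl oxidase of the demethylation steps, averaged 124 ± 16.0 FPKM with PTH and 114 ± 11.4 FPKM with vehicle (log2 0.11, adjusted p = 0.447). With the block all 3 passed, Fdft1 as lower (adjusted p = 0.00272) and Sqle and Sc4mol as higher (adjusted p = 0.0268 and 0.0326).

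Nsdhl, the dehydrogenase of the same steps, averaged 33.9 ± 6.77 FPKM with PTH and 39.5 ± 8.08 FPKM with vehicle (adjusted p = 0.364, and 0.00264 with the block). Tm7sf2, a sterol reductase, averaged 9.55 ± 3.16 FPKM with PTH and 11.6 ± 3.24 FPKM with vehicle (adjusted p = 0.419, and 0.00638 with the block), and its locus overlaps Vps51 on the same strand, at 7.47 FPKM with PTH and 9.24 FPKM with vehicle. Ebp, the sterol isomerase, stood at 51.8, 63.8 and 65.4 FPKM with PTH, against 64.0, 85.3 and 80.5 FPKM with vehicle. It was lower at every library number but overlapped between groups because library 1 was lowest in both (log2 -0.34, adjusted p = 0.0688). Ebp passed with the block (adjusted p = 0.000821) and without vehicle library 1 (adjusted p = 0.0174). Sc5d, the desaturase that precedes Dhcr7, averaged 55.5 ± 5.43 FPKM with PTH and 55.8 ± 5.60 FPKM with vehicle, a change of -0.01 with a 95% interval of -0.24 to 0.22 (adjusted p = 0.952).

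Among the 5 regulators and transport genes, Insig1 rose, Scap fell and 3 did not pass. Insig1, whose protein retains the Scap-SREBP complex when sterols are ample and is itself an SREBP target (chr5:28071363-28078662, plus strand), stood at 159, 155 and 173 FPKM with PTH, against 104, 108 and 103 FPKM with vehicle. Its libraries were close together within each group, and the mean was 1.55-fold higher with PTH (log2 0.63, SE 0.05, adjusted p = 0.000186). Insig2, the second gene of this kind, averaged 21.2 ± 3.11 FPKM with PTH and 22.7 ± 1.78 FPKM with vehicle (log2 -0.10, adjusted p = 0.461). Scap, the escort protein (chr9:110333288-110384950, plus strand), stood at 7.56, 9.04 and 7.92 FPKM with PTH, against 10.1, 11.7 and 11.3 FPKM with vehicle. It was the second lowest of the 32 genes with vehicle, its groups did not overlap, and the ratio was 0.742 (log2 -0.41, SE 0.08, adjusted p = 0.00632). That call was lost with cyclic loess (-0.20, adjusted p = 0.109) and as TPM (-0.33, adjusted p = 0.259). The main coding transcript of Scap changed less, averaging 6.51 FPKM with PTH and 7.51 FPKM with vehicle (log2 -0.19). On this transcript alone the fall passed narrowly (adjusted p = 0.0466), and in the limma test of single transcripts it did not (adjusted p = 0.0874). A minor transcript averaged 1.17 FPKM with PTH and 2.30 FPKM with vehicle.

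Srebf2, the SREBP gene of the sterol route, averaged 54.2 ± 3.00 FPKM with PTH and 52.5 ± 2.81 FPKM with vehicle (SD, n = 3 each; log2 0.05, 95% interval -0.10 to 0.19, adjusted p = 0.547). With centring its change was 0.17 and passed narrowly (adjusted p = 0.0495). Stard4, a cytosolic cholesterol carrier, stood at 42.0, 35.2 and 42.3 FPKM with PTH, against 36.9, 30.5 and 33.7 FPKM with vehicle, and PTH library 2 lay below vehicle library 1. Its change of 0.24 (SE 0.10) did not pass (adjusted p = 0.0766). It was called higher with the block (adjusted p = 0.00380), with centring (0.0208), with cyclic loess (0.0331), without PTH library 2 (0.0270) and without vehicle library 1 (0.0467).

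In the fatty acid arm the 2 elongases rose and the other 8 genes did not pass; no gene fell in the limma test, although 1, Srebf1, was lower at an unadjusted p under 0.05. The arm summed to 760 to 926 FPKM with PTH and to 768 to 916 FPKM with vehicle, while the sterol arm summed to 1795 to 2130 FPKM with PTH and to 1474 to 1714 FPKM with vehicle. Elovl5, the elongase of polyunsaturated chains (chr9:77917364-77984519, plus strand), stood at 47.9, 36.1 and 46.5 FPKM with PTH, against 20.1, 17.7 and 19.2 FPKM with vehicle. The groups were far apart, with a 2.29-fold rise (log2 1.16, SE 0.11, adjusted p = 0.000335). Elovl6, the elongase of saturated and monounsaturated chains (chr3:129532355-129638495, plus strand), stood at 40.6, 29.1 and 35.7 FPKM with PTH, against 26.8, 20.5 and 25.2 FPKM with vehicle. PTH library 2 was little above vehicle library 1, and the 1.45-fold rise (log2 0.53, SE 0.14, adjusted p = 0.0198) lost its call without PTH library 1 (adjusted p = 0.0528), PTH library 3 (0.0595) or vehicle library 2 (0.0525). Both elongases passed with the block (adjusted p = 5.32e-05 for Elovl5 and 0.000184 for Elovl6) and as TPM.

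The enzymes that make the chain itself did not pass. Acly, which supplies cytosolic acetyl-CoA, averaged 61.4 ± 4.64 FPKM with PTH and 64.7 ± 6.56 FPKM with vehicle (SD, n = 3 each; adjusted p = 0.522). Acaca, the acetyl-CoA carboxylase, had the lowest summed FPKM of the 32 genes, at 4.35, 4.16 and 4.43 FPKM with PTH, against 6.36, 4.16 and 3.93 FPKM with vehicle. Its transcripts with values were short, at 431, 889 and 1058 bases in GENCODE M21. The shortest held a mean of 61.6% of the sum with PTH and 70.7% with vehicle. The Acaca values may therefore not stand for the whole carboxylase transcript. The vehicle spread of Acaca came from library 1, and its change of -0.12 turned to 0.08 without that library (adjusted p = 0.581 with it and 0.377 without). Fasn, fatty acid synthase, averaged 58.0 ± 3.63 FPKM with PTH and 52.3 ± 4.93 FPKM with vehicle (log2 0.15, adjusted p = 0.168). It was called higher with centring (adjusted p = 0.0307) and with the block (adjusted p = 0.0123).

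The desaturases split without passing. Scd2, which had the highest level of the 32 genes with vehicle, stood at 383, 321 and 359 FPKM with PTH, against 418, 375 and 410 FPKM with vehicle (log2 -0.18, adjusted p = 0.0861). It was called lower with the block (adjusted p = 0.00507), with quantile normalisation (0.0343) and without PTH library 1 (0.0397). Its relative Scd1 stood at 86.6, 60.5 and 71.0 FPKM with PTH, against 73.6, 48.1 and 60.1 FPKM with vehicle (log2 0.27, adjusted p = 0.261, and 0.00147 with the block). In both groups of Scd1 library 2 was lowest and library 1 highest, and the groups overlapped. Fads1 averaged 111 ± 12.3 FPKM with PTH and 116 ± 14.5 FPKM with vehicle (SD, n = 3 each; adjusted p = 0.685), and its neighbour Fads2 averaged 91.5 ± 6.10 FPKM with PTH and 90.0 ± 10.0 FPKM with vehicle (adjusted p = 0.820). Both encode desaturases of polyunsaturated chains, the substrates of Elovl5. Srebf1, the SREBP gene of the fatty acid route, stood at 19.2, 16.2 and 18.0 FPKM with PTH, against 22.9, 18.7 and 22.8 FPKM with vehicle (log2 -0.26, adjusted p = 0.0618). It was called lower with the block (adjusted p = 0.00322), without vehicle library 2 (0.0149) and on its highest transcript alone (0.0181), and its locus touches Rai1 on the opposite strand.

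**Figure D4:**
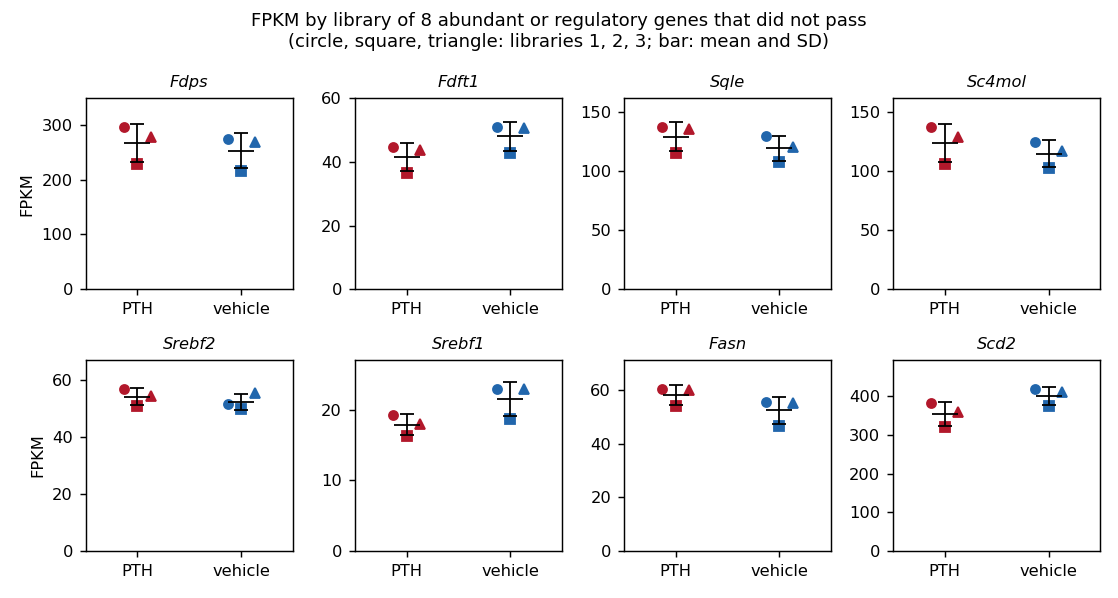
FPKM of 8 abundant or regulatory synthesis genes that did not pass, one panel per gene, with PTH libraries on the left and vehicle libraries on the right (circle, square and triangle, libraries 1, 2 and 3; bars, mean and SD; axes start at 0). The groups overlap in every panel, and library 2 is the lowest of its group in all 8 genes.

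The start regions of 6 of these genes are shown to place the motifs of cyclic AMP and sterol responses beside the changes: 5 genes that rose and Lss, which fell. Pmvk, Elovl5, Cyp51 and Hsd17b7 were taken from the largest rises. Hmgcs1, the smallest rise, was added because its window holds the sterol regulatory element. The window of Mvk, which rose more than Hsd17b7, is not shown. Each is the RefSeq window on GRCm38.p6 from 250 bases before to 50 bases after the annotated start, read along the gene's strand. Capitals mark the core of the cyclic AMP response element (TGACG), the sterol regulatory element (TCACNCCAC) and the CCAAT box, on either strand, the full cyclic AMP element TGACGTCA holding 2 overlapping cores.
Elovl5 (chr9:77917115-77917414, plus strand): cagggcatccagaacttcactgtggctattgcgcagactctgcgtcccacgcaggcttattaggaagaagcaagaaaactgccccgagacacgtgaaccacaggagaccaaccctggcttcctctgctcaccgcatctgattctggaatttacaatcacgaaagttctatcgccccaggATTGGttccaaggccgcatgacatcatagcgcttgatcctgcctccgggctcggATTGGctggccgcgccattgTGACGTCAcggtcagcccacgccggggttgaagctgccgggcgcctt
Hmgcs1 (chr13:119690101-119690400, plus strand): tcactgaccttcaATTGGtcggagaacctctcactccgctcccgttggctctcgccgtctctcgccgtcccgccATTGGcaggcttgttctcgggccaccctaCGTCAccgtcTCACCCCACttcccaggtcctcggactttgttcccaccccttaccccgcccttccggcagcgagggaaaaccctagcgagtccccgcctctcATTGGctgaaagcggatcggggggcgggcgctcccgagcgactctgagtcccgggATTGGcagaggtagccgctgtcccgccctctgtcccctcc
Cyp51 (chr5:4104648-4104947, minus strand): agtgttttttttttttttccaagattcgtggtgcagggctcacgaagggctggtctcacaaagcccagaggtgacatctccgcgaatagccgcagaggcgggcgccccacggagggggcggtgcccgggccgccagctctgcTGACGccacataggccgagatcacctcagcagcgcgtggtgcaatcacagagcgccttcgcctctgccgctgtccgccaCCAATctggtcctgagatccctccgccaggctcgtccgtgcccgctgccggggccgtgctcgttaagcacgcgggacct
Hsd17b7 (chr1:169969156-169969455, minus strand): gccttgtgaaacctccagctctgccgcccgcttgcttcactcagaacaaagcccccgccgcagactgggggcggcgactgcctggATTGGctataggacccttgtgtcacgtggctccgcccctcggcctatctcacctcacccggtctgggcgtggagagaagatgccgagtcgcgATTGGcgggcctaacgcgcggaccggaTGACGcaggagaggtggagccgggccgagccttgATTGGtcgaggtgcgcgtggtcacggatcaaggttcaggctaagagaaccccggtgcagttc
Pmvk (chr3:89454291-89454590, plus strand): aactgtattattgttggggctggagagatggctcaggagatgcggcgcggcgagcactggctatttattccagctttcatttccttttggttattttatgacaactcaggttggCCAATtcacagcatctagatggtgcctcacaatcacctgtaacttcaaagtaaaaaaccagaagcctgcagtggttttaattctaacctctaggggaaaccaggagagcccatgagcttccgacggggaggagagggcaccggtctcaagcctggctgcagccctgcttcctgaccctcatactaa
Lss (chr10:76531355-76531654, plus strand): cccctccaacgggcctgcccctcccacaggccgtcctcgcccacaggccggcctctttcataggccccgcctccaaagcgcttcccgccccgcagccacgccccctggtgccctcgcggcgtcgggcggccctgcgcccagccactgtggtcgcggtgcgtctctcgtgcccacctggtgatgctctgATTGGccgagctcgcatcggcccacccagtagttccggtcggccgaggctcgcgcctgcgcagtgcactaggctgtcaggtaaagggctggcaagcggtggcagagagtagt
Elovl5 was the single synthesis gene of the 25 with a window that held the full element, 4 bases after its start, and 1.79% of the 32851 windows in the RefSeq table held it. The core TGACG was found in 5 of the 9 genes that rose (Hmgcs1, Cyp51, Hsd17b7, Insig1 and Elovl5), in none of the 3 that fell and in 4 of the 13 others, against 20.8% of all windows. The 13 others leave out Fdps, Fdft1, Sqle, Stard4, Scd1, Scd2 and Fads1. Those genes did not pass and had no window, so the others are incomplete. Hmgcs1 alone held the sterol regulatory element as spelled above, 137 bases before its start, beside 1.24% of all windows. Only that exact spelling was searched, so a window without a match may still hold a variant of the element. Pmvk, with the largest rise, held neither this core nor the sterol element in this window, and neither did Mvk. CCAAT boxes were found in 8 of the 9 genes that rose, 1 of the 3 that fell and 10 of the 13 others, against 37.4% of all windows. GC boxes (GGGCGG, either strand) were found in 18 of the 25 windows (72%), against 35.7% of all windows, and E-boxes (CACGTG) in 5 (20%), against 7.15%. The shares of all windows count every window of a gene and are not limited to genes measured here. Each synthesis gene gave only the window nearest its GENCODE start, so the 2 sides are not alike. These matches describe the letters of the windows and were not tested, and the window of Acaca lay 65766 bases from its GENCODE start.

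The deposited table splits the synthesis genes into 115 transcripts, of which 75 had a mean of at least 1 FPKM. Of these 75, 14 rose and 9 fell, against 8.13% and 22.2% of 21983 tested transcripts. With the block 20 rose and 17 fell. The share of all transcripts called with the block was not computed here, so those counts have no background. The 14 rises without the block lay in 8 of the 9 genes that rose, and 4 of them were Mvk transcripts. These ran from the main coding transcript, at 52.9 FPKM with PTH and 29.1 FPKM with vehicle (log2 0.84, adjusted p = 0.0313), to one that keeps an intron. The latter stood at 6.69 FPKM with PTH and 2.32 FPKM with vehicle (log2 1.36, adjusted p = 0.000933). For Lss the falls called at this level were those of 3 transcripts that keep an intron (log2 -0.72, -0.79 and -0.74), and for Ebp those of 2 such transcripts (log2 -1.44 and -1.07). Srebf1 had 2 coding transcripts that fell, by 0.29 and 0.43 on the log2 scale. A shift in the balance of a gene's transcripts was called in none of the 18 synthesis genes that could be tested, against 4.32% of 4818 tested genes. At an unadjusted p under 0.05 there were 6 of the 18, against 30.4% of all tested genes. The nearest was Acly, in which a minor transcript made up 5.88% of the gene with PTH and 9.22% with vehicle (adjusted p = 0.0829). Next came Sc5d, whose longer transcript made up 68.3% of the gene with PTH and 76.9% with vehicle (adjusted p = 0.0914). Sc5d was called when the table was limited to transcripts of at least 5 FPKM (adjusted p = 0.0486).

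The authors' deposited table compares the groups per transcript under the names q1 and q2, and the direction of q2 over q1 equalled PTH over vehicle in 1106 of the 1109 transcripts that changed by at least 1 on the log2 scale in the library columns. The authors' deposited table gives 15 of the 115 transcripts of the synthesis genes a q-value under 0.05, in 13 genes, 14 higher and 1 lower, and 7.62% of all transcripts. In the authors' deposited table all 9 genes that rose here have such a transcript, and so do Fasn (log2 0.34, q = 0.0216), Scd1 (0.43, q = 0.00111) and Stard4 (0.41, q = 0.00111), which did not pass here. Dhcr7 is the 1 gene with a lower transcript in the authors' deposited table (log2 -0.35, q = 0.0317), and Lss and Scap have none. The changes in the authors' deposited table ran higher than those from the library columns by a median of 0.155 over all transcripts compared.

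Library 2 was the lowest of its group in both groups for 26 of the 32 synthesis genes (81.2%), against 18.8% of all tested genes. The block takes out differences shared by a number; it added 12 calls among the synthesis genes and took none away. At the level of single library numbers, PTH was above vehicle in all 3 pairs for 15 synthesis genes and below in all 3 for 12, against 18.3% and 60.4% of all tested genes. What the library numbers stand for is not given in the sources used here. For a single gene, the smallest two-sided p that an exact permutation of 3 against 3 libraries can give is 0.1. Each of the 12 called genes reached it, as any gene without overlap between the groups must, so it adds no further support. Of all tested genes, 13.1% had all PTH libraries above and 47.5% all PTH libraries below the vehicle libraries.

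Other steps of the same routes were read from lists chosen by function, 47 tested genes in all, of which 11 rose and 11 fell (23.4% each), beside the same backgrounds of 10.8% and 41.0%. Of 8 other enzymes of sterol and isoprenoid metabolism, 1 rose and 1 fell. Of 20 genes of sterol sensing, uptake, storage and efflux, 5 rose and 5 fell. The largest changes there were those of Lpin1, a phosphatidate phosphatase, at 10.4 ± 2.72 FPKM with PTH and 2.97 ± 0.458 FPKM with vehicle (SD, n = 3 each; log2 1.63, SE 0.19, adjusted p = 0.000655), and of Mylip, a ubiquitin ligase for lipoprotein receptors, at 6.36 ± 0.358 FPKM with PTH and 11.2 ± 0.658 FPKM with vehicle (log2 -0.76, SE 0.07, adjusted p = 0.000207). Rnf139, a ubiquitin ligase of the endoplasmic reticulum, fell by 0.55 and Stard3, a sterol transporter of late endosomes, by 0.49 on the log2 scale. Rnf139 overlaps Tatdn1 on the opposite strand, which stood at 5.14 to 6.42 FPKM with PTH and at 6.81 to 7.90 FPKM with vehicle.

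Of 19 other tested fatty acid genes, 5 rose and 5 fell, and the rises were led by 2 acyl-CoA synthetases, which activate fatty acids for use. Acsl1 stood at 34.3, 31.1 and 40.3 FPKM with PTH, against 6.81, 7.55 and 8.74 FPKM with vehicle (log2 2.12, SE 0.12, adjusted p = 4.1e-05). Acsl3 stood at 173, 188 and 199 FPKM with PTH, against 55.5, 49.6 and 49.8 FPKM with vehicle (log2 1.84, SE 0.07, adjusted p = 7.81e-06). Both rises exceeded that of every synthesis gene, and their groups were far apart. Utp14b lies within the Acsl3 locus on the same strand and stood at 41.1 to 44.1 FPKM with PTH and at 6.88 to 8.09 FPKM with vehicle, so the division of reads between these 2 genes is uncertain. Mid1ip1, which activates acetyl-CoA carboxylase, fell by 0.84, and Oxsm, of mitochondrial fatty acid synthesis, by 0.75 on the log2 scale, and each overlaps another gene on the opposite strand.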

How the data were processed

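RNA from 6 libraries, 3 treated with PTH(1-34) and 3 with vehicle, was isolated with TRIzol and made into stranded mRNA libraries, per the labels' protocols. The authors estimated transcript abundance as FPKM with Cufflinks, per the labels, and the build was mm10, per the submitters' processing notes; for the aligner, the versions and the strand setting nothing is stated in the sources used here. The file that was deposited holds FPKM for 37478 transcripts and, per the file headers, the authors' log2 fold change, p-value and q-value per transcript, which were only copied.

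FPKM were summed per symbol. limma 3.58.1 (R 4.3.3; lmFit, eBayes with trend) was run on log2(FPKM + 0.5) of the 11628 genes with a mean of at least 1 FPKM, two-sided, without a block, with Benjamini-Hochberg adjustment over all of them and a threshold of 0.05; such log2 changes understate those of low genes. Transcripts were tested alike, and unequal change within a gene by limma on the log2 of a transcript over the rest of its gene, which replaced the planned diffSplice because that made too many false calls on simulated data. Both tests were checked on simulated data.

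Libraries with the same number deviated together from their group means (correlations 0.422, 0.275 and 0.285 across genes for numbers 1, 2 and 3), so the number was taken to pair the samples. At most 0.138% of values were identical between 2 libraries. Alternatives were 21 other settings. Symbols were matched to GENCODE M21, and RefSeq windows were found for 25 of the 32 members. Every member is named, and from each list of other pathway genes up to 4 with the largest change past the threshold; those picked among other sterol enzymes are counted, not named here. The members and lists were chosen with earlier results of these data known. Tables used pandas 2.3.3 (Python 3.11.15) and plots used matplotlib 3.10.9.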

Additional observations from a re-analysis of the deposited data

How the results depend on the processing

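Of the 9 rises, those of Pmvk, Cyp51, Hsd17b7, Insig1 and Elovl5 held under all 21 alternative settings, and none of the 3 falls did. Over all genes (1252 higher, 4765 lower), higher calls numbered 2131 with median centring, 2345 with cyclic loess and 2890 with block and centring, and lower calls 2792 with centring, 3096 with quantile normalisation, 2051 with cyclic loess and 1158 as TPM. Among the 32 synthesis genes (9 higher, 3 lower), the replicate block gave 14 higher and 10 lower, block with centring 17 and 6, and TPM 0 lower. In the sterol arm the block gave 8 lower, block with centring 12 higher and 5 lower, and TPM 0 lower. In the fatty acid arm the block gave 4 higher and 2 lower, block with centring 5 and 1, and quantile normalisation and the highest transcript alone 1 lower each. The 64 genes of all 5 other lipid lists, glycerolipid and oxidation genes included (13 higher, 18 lower), gave 7 higher and 4 lower as TPM, and 8, 11 and 9 lower with centring, quantile normalisation and cyclic loess. The 9 falling transcripts became 2 at a minimum of 5 FPKM, 17 with the block and 5 with centring. Shares of all transcripts under these settings were not computed here. Unequal change was called in 1 of 11 synthesis genes at the minimum of 5 FPKM, beside 90 of 1749 tested genes. The signs of 7 genes that did not pass turned: Fdps (-0.011) and Fads2 (-0.046) with quantile normalisation; Sc5d with centring (0.12, also with the block), cyclic loess (0.05) and TPM (0.084); Insig2 with centring (0.021, also with the block) and cyclic loess (0.031); Acly with centring (0.051, also with the block), TPM (0.0195) and the highest transcript alone (0.11); Acaca with centring (0.0076, also with the block), quantile normalisation (0.10) and cyclic loess (0.15); and Fads1 with centring (0.063, also with the block) and TPM (0.032). Without number 1 of both groups the change was 0.0205 for Sc5d and 0.075 for Acaca, and without number 2 it was 0.0052 for Sc5d and -0.0087 for Fads2. Leaving out 1 library, or 1 number in both groups, gave 873 to 1178 genes higher and 2757 to 4455 lower, 5 to 10 synthesis genes higher and 1 to 5 lower, 4 to 8 and 1 to 4 in the sterol arm, 1 to 2 and 0 to 1 in the fatty acid arm, and 10 to 13 and 10 to 19 among those 64 genes. For synthesis genes, 5 higher and 1 lower were called without number 3 of both groups, 10 higher without number 2 of both groups, PTH library 2 or vehicle library 1, and 5 lower without number 2 of both groups or vehicle library 2. With 1 library left out, changes ranged from -0.034 to 0.19 for Fdps, -0.078 to 0.075 for Sc5d, -0.23 to 0.081 for Acaca, -0.16 to 0.024 for Fads1 and -0.062 to 0.098 for Fads2. Without number 3 of both groups the calls of Hmgcs1, Mvk, Idi1, Lss, Scap and Elovl6 were lost. Acaca has no value at a minimum of 5 FPKM. The cause of these shifts was not tested, and the unknown depth limits all small differences.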

Other observations

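Genes that store or burn fatty acids lie outside both synthesis routes. Of 9 tested genes of glycerolipid synthesis and storage, 2 rose and 4 fell (22.2% and 44.4%, against 10.8% and 41.0% of all tested genes). Dgat1, which catalyses the last step of triglyceride synthesis, stood at 117, 102 and 107 FPKM in PTH libraries 1 to 3, against 13.5, 12.2 and 14.5 FPKM in vehicle libraries 1 to 3. The groups were far apart, with an 8.08-fold rise (log2 2.97, SE 0.08, adjusted p = 1.61e-06, limma). Agpat2, an acyltransferase of phosphatidate synthesis, averaged 23.2 ± 1.16 FPKM with PTH and 16.0 ± 0.348 FPKM with vehicle (SD, n = 3 each; log2 0.52, adjusted p = 0.000351, limma). The lipid droplet coat gene Plin2 averaged 20.5 ± 2.28 FPKM with PTH and 26.4 ± 1.51 FPKM with vehicle (log2 -0.36, adjusted p = 0.0128, limma), and Lpin3, a phosphatidate phosphatase, fell by 0.49 on the log2 scale. Its relative Lpin1, which was listed with the sterol handling genes and is not in this count, rose by 1.63 on the log2 scale. After median centring the same 2 rises and none of the 4 falls were called in this list.

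Of 8 tested genes of fatty acid oxidation, 3 fell and none rose in the limma test, nor was any higher at an unadjusted p under 0.05. The share that fell, 37.5%, lay close to the 41.0% of all tested genes. Cpt2, a carnitine acyltransferase of the inner mitochondrial membrane, averaged 7.72 ± 0.490 FPKM with PTH and 11.2 ± 1.07 FPKM with vehicle (SD, n = 3 each; log2 -0.50, adjusted p = 0.00262, limma). The acyl-CoA dehydrogenases Acadm and Acadl fell by 0.35 and 0.15 on the log2 scale, beside a median of -0.15 over all tested genes. After median centring Acadl no longer passed (-0.03, adjusted p = 0.65).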
